A study of Mus musculus with 9 samples.

Results

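The interferon response of the uterus was followed through 35 mouse genes, chosen by name: 4 transcription factors, 3 sensors of foreign nucleic acid, 19 antiviral effectors, 4 regulators and 5 genes of antigen processing. They were taken from 35934 genes with a value in 9 RNA-seq libraries of whole uterus, 3 libraries a group. Arrested libraries came from horns injected with pooled culture medium of 18 human embryos that had arrested in development, competent libraries from horns that received pooled medium of 9 developmentally competent human embryos, and control libraries from horns given embryo culture medium in which no embryo had grown. All animals were immature C57BL/6 females primed over 3 days with progesterone (1 mg, given once) and β-estradiol (10 mg/kg each day), and each injection had a volume of 50 µl. The sample labels give their age as 25 days and the series text also gives 21 days. The media were pools, so variation between the embryos of a pool was not sampled. The time from injection to collection is not given in the sources used here, and no label ties each library to an animal of its own; p-values therefore measure the spread between these libraries, which may be technical.

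Interferons are secreted proteins that bind receptors on nearby cells and, through the JAK kinases, activate transcription factors. Type I interferons assemble a complex with STAT2 and IRF9 that binds the interferon-stimulated response element (ISRE), and interferon gamma acts at the gamma-activated site (GAS). The induced genes encode sensors of viral RNA and DNA, proteins that block virus entry or copying, and the immunoproteasome and peptide transporter that supply class I molecules with peptides. In the mouse uterus the epithelium makes interferon epsilon without infection, and many interferon-induced genes are known to be regulated around implantation.

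The ISRE is the element that promoters of this response are known to share, so promoters were searched for its core (GAAA, 2 bases of any kind, GAAA) on both strands. RefSeq windows on GRCm38.p6, from 250 bases before to 50 bases after the start of transcription, were found for 28 of the 35 genes. The windows of Oas2, Usp18, Mx1, Mx2, Tap2, Parp14 and Zbp1 were not used here. The core was present in 15 of the 28 (53.6%), against 3.99% of 27025 genes with a window of the same length. The core of the GAS, TTCNNNGAA, was present in 8 of the 28 (28.6%), against 9.55% of those genes. A match is a run of letters and was not tested as a binding site. The windows below run 5′ to 3′ on the strand of the gene, with the ISRE core in capitals. Isg15, with 3 overlapping cores, and Ifit3, with 2 separate cores on the opposite strand, are shown because their levels carry the differences between libraries described below. Oas1a and Ifitm3 each carry 2, and their log2 differences between arrested and competent libraries had opposite signs. These were -0.28 ± 0.32 for Oas1a and 0.44 ± 0.23 for Ifitm3 (SE) on annotated transcripts. The groups overlapped for both genes on those values, so neither direction is established. B2m carries 1 and Tap1 none, which shows how the antigen processing genes differ among themselves.
Isg15, chr4:156200769-156201068, minus strand: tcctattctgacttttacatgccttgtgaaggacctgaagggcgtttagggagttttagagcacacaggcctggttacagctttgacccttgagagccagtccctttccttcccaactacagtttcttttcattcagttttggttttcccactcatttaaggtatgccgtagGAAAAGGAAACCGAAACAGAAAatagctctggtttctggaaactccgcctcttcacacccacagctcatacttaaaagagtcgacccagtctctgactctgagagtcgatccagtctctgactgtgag
Ifit3, chr19:34583279-34583578, plus strand: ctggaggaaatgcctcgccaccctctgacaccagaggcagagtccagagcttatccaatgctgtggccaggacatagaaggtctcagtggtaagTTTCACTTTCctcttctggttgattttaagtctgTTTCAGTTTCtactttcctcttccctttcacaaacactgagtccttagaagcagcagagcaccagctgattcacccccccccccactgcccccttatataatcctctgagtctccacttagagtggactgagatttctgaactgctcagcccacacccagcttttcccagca
Oas1a, chr5:120907476-120907775, minus strand: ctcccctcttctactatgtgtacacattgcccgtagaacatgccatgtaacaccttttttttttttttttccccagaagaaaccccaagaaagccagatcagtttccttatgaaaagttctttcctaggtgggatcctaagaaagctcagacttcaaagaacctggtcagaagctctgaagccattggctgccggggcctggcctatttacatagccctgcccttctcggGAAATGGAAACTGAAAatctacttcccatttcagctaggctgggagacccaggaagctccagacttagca
Ifitm3, chr7:141010695-141010994, minus strand: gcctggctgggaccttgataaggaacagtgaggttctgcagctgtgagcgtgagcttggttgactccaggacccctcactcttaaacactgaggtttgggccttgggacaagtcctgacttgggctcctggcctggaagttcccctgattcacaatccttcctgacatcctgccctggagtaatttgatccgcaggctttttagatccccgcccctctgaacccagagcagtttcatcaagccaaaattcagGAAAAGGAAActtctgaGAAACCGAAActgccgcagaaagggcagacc
B2m, chr2:122147437-122147736, plus strand: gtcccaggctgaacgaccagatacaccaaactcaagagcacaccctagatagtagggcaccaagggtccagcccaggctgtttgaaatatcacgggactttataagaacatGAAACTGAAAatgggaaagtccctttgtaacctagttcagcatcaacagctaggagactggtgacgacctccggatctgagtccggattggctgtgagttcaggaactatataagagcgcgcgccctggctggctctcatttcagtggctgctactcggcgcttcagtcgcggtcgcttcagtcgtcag
Tap1, chr17:34187306-34187605, plus strand: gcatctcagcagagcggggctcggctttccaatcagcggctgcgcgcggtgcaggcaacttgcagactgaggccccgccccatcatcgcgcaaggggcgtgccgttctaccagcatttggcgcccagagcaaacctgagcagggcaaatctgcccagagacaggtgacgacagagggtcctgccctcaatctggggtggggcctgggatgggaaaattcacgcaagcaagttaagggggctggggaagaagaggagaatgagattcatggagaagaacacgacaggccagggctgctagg

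Levels are given in FPKM, fragments per kilobase of transcript scaled to the library's total, summed over the annotated transcripts of a gene. Of the 35 genes, 29 were above 0 in all 9 libraries. Ifitm3, a membrane protein that blocks virus entry, averaged 1480 FPKM over the 9 libraries and was the most abundant. B2m, the invariant light chain of class I molecules, averaged 960 FPKM, Ifitm1 averaged 837 FPKM, and Bst2, the tetherin that holds budding virus on the cell surface, averaged 353 FPKM. At the other end, Mx1 and Mx2 averaged 1.42 FPKM and 0.528 FPKM. The median over the 34 genes that reached a mean of 1 FPKM was 17.8 FPKM, against 10.8 FPKM for all 13333 genes that did; Mx2 was below that floor and was not tested. The hormone-primed, uninfected uterus thus contained mRNA of nearly every gene examined, and B2m and the restriction factors of the cell membrane stood far above the rest.

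A value of 0 in these files does not show that a gene was silent. Cufflinks also assigned fragments to transcripts assembled anew in each library, and 22 of the 35 genes had part of their FPKM there. Psmb8, a catalytic subunit of the immunoproteasome, had 64.4, 45.1 and 46.4 FPKM in arrested libraries and 67.2, 70.5 and 63.6 FPKM in competent libraries, against 57.5, 0 and 66.1 FPKM in control libraries. The 0 of control 2 became 57.5 FPKM with the assembled transcripts of that library added, which is the level of control 1. Mx2 had 1.28, 1.04 and 2.43 FPKM on annotated transcripts in arrested libraries and was listed at 0 in all 6 others; with assembled transcripts it had 2.55, 2.17 and 3.43 FPKM in arrested libraries, 3.52, 3.07 and 4.59 FPKM in competent libraries and 4.43, 2.28 and 8 FPKM in control libraries. The order of the groups for Mx2 thus turned round once those transcripts were included. The steroid receptor genes Pgr and Esr1, which the uterus expresses, were listed at 0 in 6 and 8 of the 9 libraries. Hoxa10 (29.8 to 79.5 FPKM) and Msx1 (85 to 167 FPKM), further genes of the uterus, were present in all. Foxa2, from the same list, was at 0 in competent 2 and at 2.39 FPKM at most. Values with the assembled transcripts are therefore given beside the annotated ones for genes whose groups or differences they move.

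**Figure D1:**
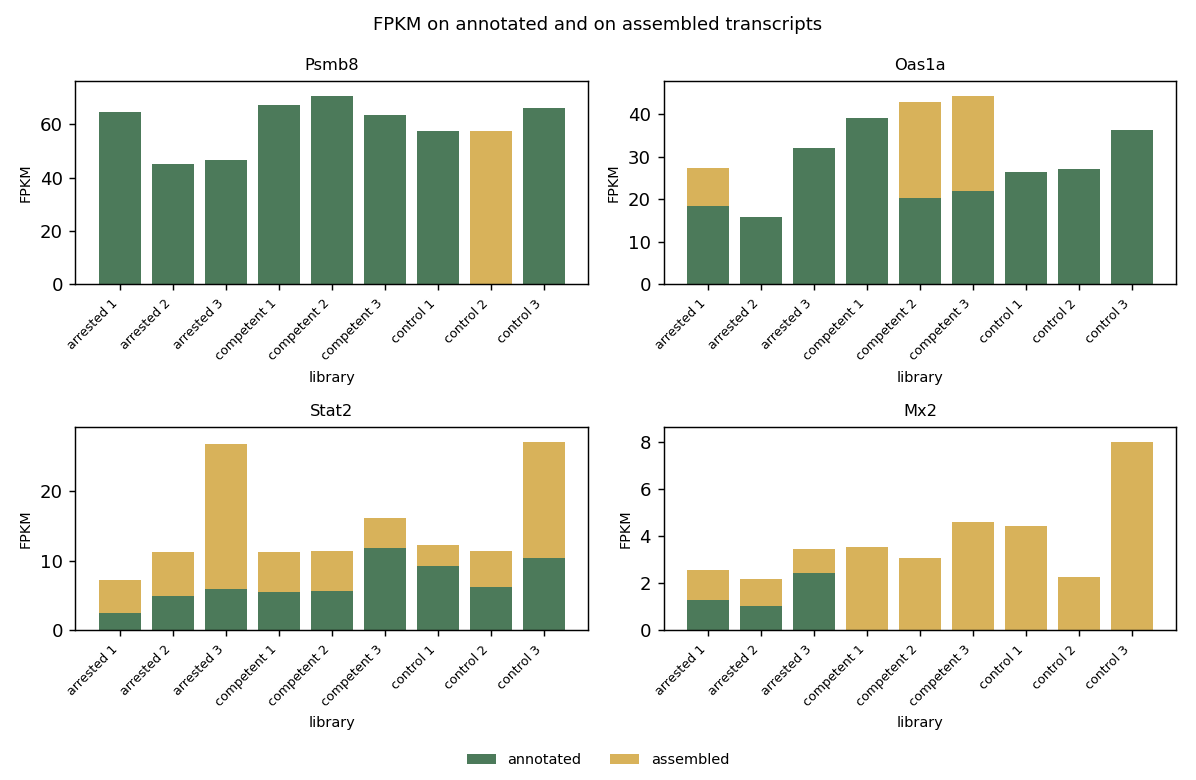
Bars give FPKM of Psmb8, Oas1a, Stat2 and Mx2 in each of the 9 libraries, with annotated transcripts in green and transcripts assembled in that library stacked above them in yellow. The yellow part supplies all of Psmb8 in control 2 and all of Mx2 in the competent and control libraries.

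The clearest pattern among the 35 genes was a difference between libraries of the same group. Isg15, a ubiquitin-like protein attached to viral and host proteins, had 34.4, 20.8 and 62.4 FPKM in arrested libraries and 51.8, 37.5 and 69.2 FPKM in competent libraries, against 32.4, 27.8 and 71.5 FPKM in control libraries. Its levels overlapped among all groups, and the third library of each group was the highest. Ifit3, a binder of viral RNA complexes, had 23.5, 19.1 and 78.4 FPKM in arrested libraries and 25.7, 17 and 27.9 FPKM in competent libraries, against 25.1, 16.4 and 72.6 FPKM in control libraries. Arrested 3 and control 3 thus stood far above the other 7 libraries. Of the 50-base stretches in the Ifit3 transcript, 51.5% are shared with its near copy I830012O16Rik, so this level is uncertain. Ifit1, which binds viral RNA caps, had 11.8, 8.10 and 14.8 FPKM in arrested libraries, 13, 11.9 and 14.7 FPKM in competent libraries and 10.3, 8.34 and 22.3 FPKM in control libraries. Control 3 was again the highest library for Ifit1, and the groups overlapped.

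Control 3 was also the highest library for Bst2 and Rsad2. Bst2 had 265, 259 and 462 FPKM in arrested libraries and 369, 365 and 369 FPKM in competent libraries, against 304, 250 and 529 FPKM in control libraries. Competent libraries were almost alike for Bst2 and lay inside the range of both other groups. Rsad2 (viperin, an enzyme that makes a chain-terminating nucleotide) had 1.20, 2.20 and 4.16 FPKM in arrested libraries, 2.95, 2.54 and 2.20 FPKM in competent libraries and 1.48, 1.48 and 5.18 FPKM in control libraries. Its value in arrested 3 came next after control 3. Usp18, which removes ISG15 and restrains the type I receptor, had 7.21, 5.23 and 11.2 FPKM in arrested libraries, 11.5, 7.84 and 11.4 FPKM in competent libraries and 7.87, 6.13 and 7.52 FPKM in control libraries. On these values Usp18, a regulator, did not share that order. With assembled transcripts, Usp18 reached 13.4 FPKM in arrested 3 and 16.6 FPKM in control 3.

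Counted over the 34 tested genes, control 3 was the highest control library for 21 (all genes tested, 36.5%), and for 26 with assembled transcripts (37.9%). Arrested 3 was the highest arrested library for 20 (26.8%), and for 26 with assembled transcripts (29.2%). Control 2 was the lowest control library for 24 genes (30.8%), competent 2 the lowest competent library for 24 (36.7%) and arrested 2 the lowest arrested library for 19 (24.0%). Competent 3 was the highest competent library for 16 (32.4%). Control 3 was also the highest of all 9 libraries for 13 of the 34 (14.1%). The labels do not say that libraries of the same number were handled together, and over all genes they did not deviate together. The within-group SD of log2(FPKM + 1) had a median of 0.41 over these genes in arrested libraries, 0.27 in competent libraries and 0.45 in control libraries, against 0.36, 0.22 and 0.25 over all genes tested. The gap between arrested and competent libraries was thus present over all genes too, while control libraries spread more for these genes than for genes in general.

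**Figure D2:**
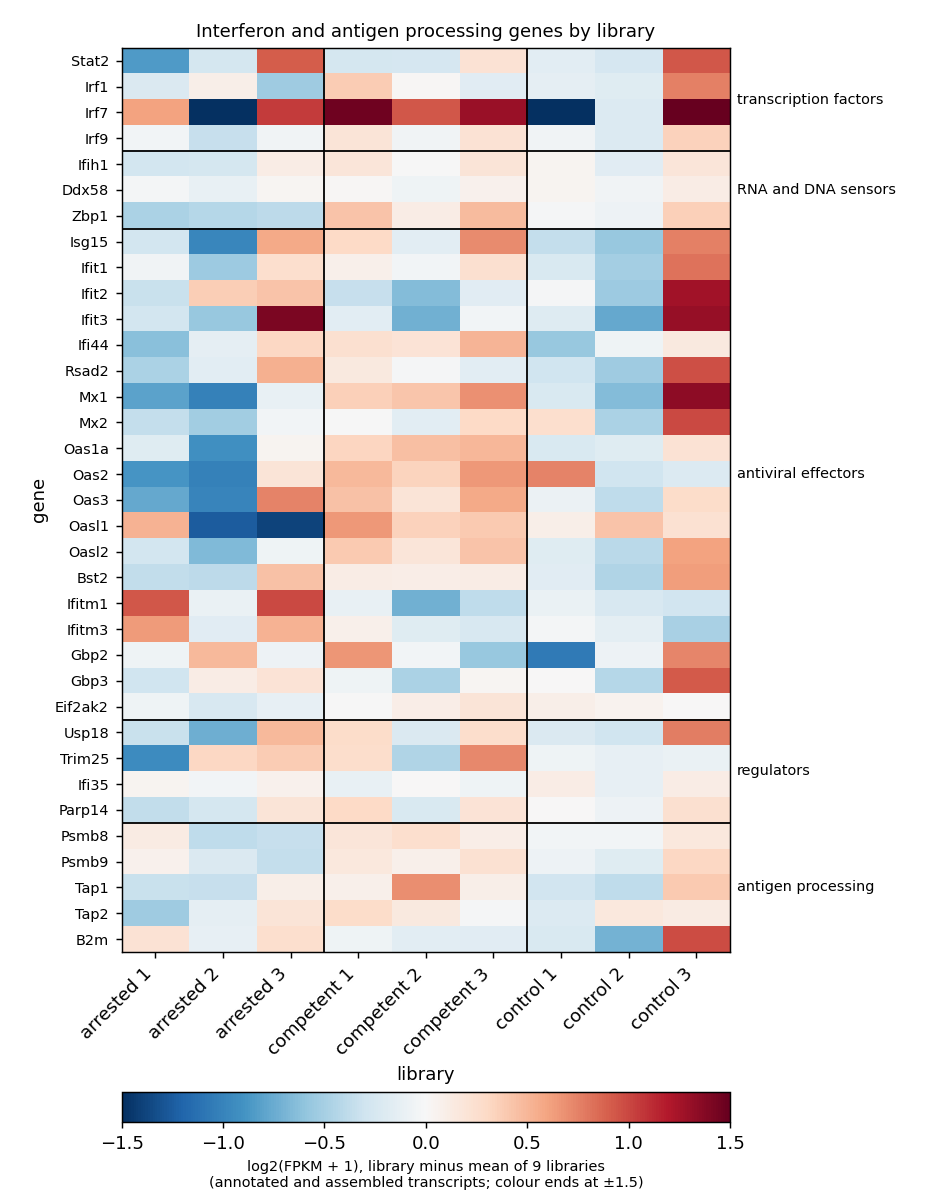
Each cell is the log2(FPKM + 1) of a gene in a library, annotated and assembled transcripts together, minus the mean of that gene over the 9 libraries; rows are grouped by role and columns by medium. Red is above the mean, blue below it, and the columns of arrested 3, competent 1, competent 3 and control 3 are red for most rows while those of arrested 1, arrested 2, control 1 and control 2 are mostly blue.

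**Figure D3:**
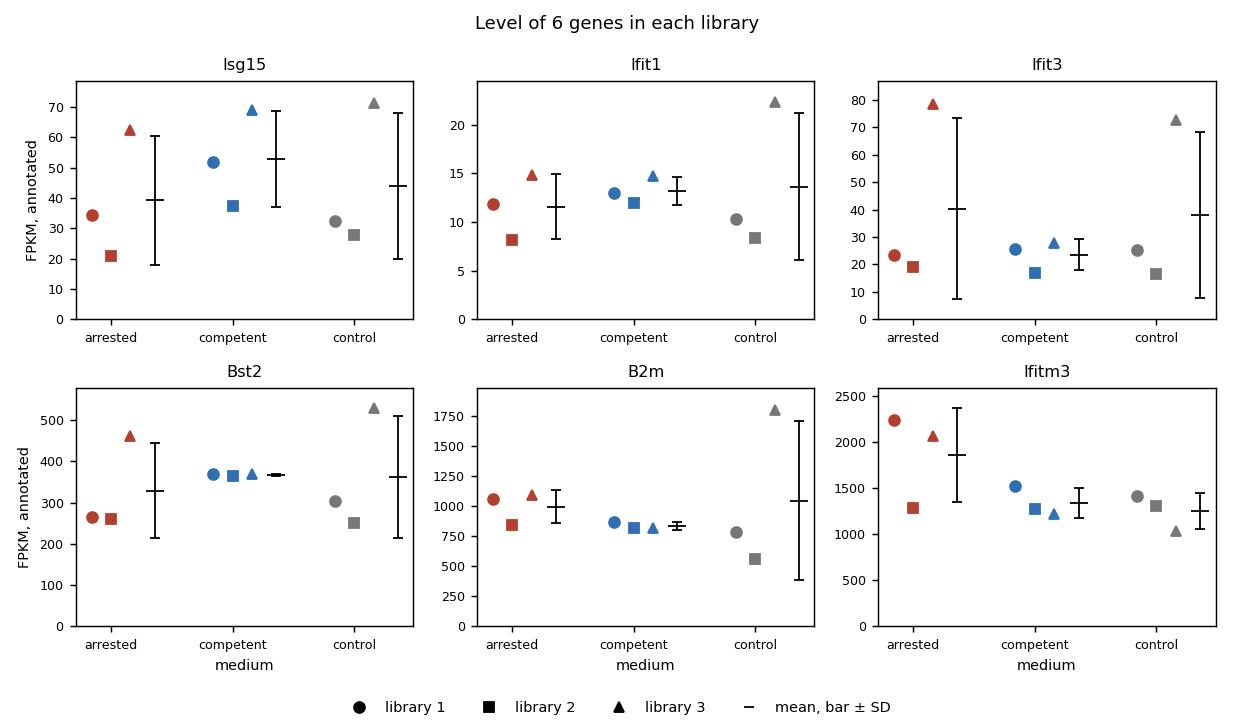
Points are FPKM on annotated transcripts for 6 genes in each library, with marker shapes for library 1, 2 and 3 of a group, and black bars are the mean ± SD of 3 libraries. The third library stands above the other 2 in arrested and control groups for Isg15, Ifit1, Ifit3, Bst2 and B2m, and Ifitm3 has a different order.

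Lists of immune cell markers did not follow the 2 libraries in one way. The summed level of 7 macrophage genes was 145, 173 and 99 FPKM in arrested libraries, 131, 132 and 142 FPKM in competent libraries and 171, 128 and 263 FPKM in control libraries. A sum of 5 pan-leukocyte genes was 196, 162 and 102 FPKM in arrested libraries, 85, 92 and 108 FPKM in competent libraries and 147, 114 and 199 FPKM in control libraries. Control 3 had the highest macrophage and leukocyte sums, whereas arrested 3 had the lowest macrophage sum of all and the lowest leukocyte sum of its group. The sum of 4 plasmacytoid dendritic cell genes was 12.1, 18 and 20 FPKM in arrested libraries, 13.5, 14.6 and 15.9 FPKM in competent libraries and 14.2, 15.2 and 27.3 FPKM in control libraries, highest in control 3 and then arrested 3. Most of it was Tcf4, with 25.8 FPKM in control 3 and 18.8 FPKM in arrested 3, a factor that other cells express too. Ly6d, also on that list, went the other way. It had 0.968 FPKM in control 3 and 0.807 FPKM in arrested 3, against 3.15 to 6.13 FPKM in the other libraries. The defining markers Ccr9 and Siglech were listed at 0 in all libraries and at 0.724 FPKM at most. Neutrophil genes summed to 3.45, 4.25 and 3.66 FPKM in arrested libraries, 5.56, 5 and 4.70 FPKM in competent libraries and 8.75, 23.5 and 4.32 FPKM in control libraries, and the B cell sum lay between 3.26 and 4.83 FPKM in all 9, so both were lowest in control 3 among the controls. In arrested 2, 6 adipocyte genes summed to 1300 FPKM, against 1.42 to 163 FPKM in the other libraries. Neither sequencing depth nor cell content was tested as a part of these values; the coverage summed over transcripts was 1839 Mb in arrested 3 and 1629 Mb in control 3, within the 1303 to 2471 Mb of all libraries. In whole tissue, fewer cells of a type and less RNA per cell cannot be told apart.

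No gene of the 35 passed the test in any comparison of media. The limma moderated test on log2(FPKM + 1) over 13333 genes, with Benjamini-Hochberg adjustment and a threshold of 0.05, called 0 of the 34 tested genes in each comparison. It called 0.135% of all genes between arrested and competent libraries, 0.0525% between arrested and control libraries and 0.045% between competent and control libraries. At an unadjusted p under 0.05, 4 of the 34 were reached between arrested and competent libraries (10.9% of all genes), 3 between arrested and control libraries (5.27%) and 0 between competent and control libraries (5.18%). With assembled transcripts 0 of 35 were called, against 0.133%, 0.0561% and 0.0281% of all genes in the same order, and 8, 3 and 0 of the 35 had an unadjusted p under 0.05.

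Set against competent libraries, arrested libraries had lower levels of most of the antiviral genes, and higher levels of Ifitm1. On annotated transcripts the difference was below 0 for 24 of the 34 genes (50.9% of all genes) and above 0 for 10 (48.7%), with a median of -0.29 on the log2(FPKM + 1) scale against -0.01 for all genes. It ran from -2.14 for Irf7 to 1.01 for Ifitm1, and the smallest adjusted p was 0.26 (limma). Without arrested 2, the median became -0.15. Transcription factors had a median difference of -0.47, regulators -0.39, sensors -0.26, effectors -0.25 and antigen processing genes -0.14. With assembled transcripts these medians were -0.29, -0.25, -0.26, -0.24 and -0.33, so the order of the roles was not kept. The groups did not overlap for 4 genes (16.5% of all genes): Zbp1, Oasl2 and Psmb9 were lower in every arrested library than in any competent one (8.75%) and Ifitm1 was higher (7.73%). With assembled transcripts, 26 of 35 differences were below 0 (50.3%), 9 were above 0 (49.3%), and 7 genes were lower without overlap (9.45%): Zbp1, Mx1, Oas1a, Oas2, Oasl2, Eif2ak2 and Psmb9. Ifitm1 alone was higher without overlap (8.71%).

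Zbp1, a sensor of left-handed nucleic acid that starts necroptosis (chr2:173032113-173044424 on NCBIM37, minus strand), gave the smallest p of the 34. It had 10.9, 5.06 and 6.06 FPKM in arrested libraries and 21.2, 16.8 and 22.0 FPKM in competent libraries, against 15.3, 6.89 and 15.1 FPKM in control libraries. All arrested libraries were below all competent ones, and they overlapped the control libraries. The mean was 7.35 ± 3.15 FPKM in arrested libraries and 20 ± 2.79 FPKM in competent libraries (SD, n = 3 each), a log2 difference of -1.38 ± 0.35 (SE; limma adjusted p = 0.26). With assembled transcripts Zbp1 had 10.9, 11.3 and 11.6 FPKM in arrested libraries, 21.2, 16.8 and 22.0 FPKM in competent libraries and 15.3, 14.7 and 20.1 FPKM in control libraries. Arrested libraries were then below both other groups with no overlap and with the least spread. On those values the log2 difference was -0.77 ± 0.16 from competent libraries (limma adjusted p = 0.15) and -0.52 ± 0.16 from control libraries (limma adjusted p = 0.79).

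The other sensors differed little. Ifih1 (MDA5, a receptor for long double-stranded RNA) ranged from 4.77 to 6.97 FPKM over the 9 libraries and Ddx58 (RIG-I, a receptor for RNA ends) from 11 to 16.9 FPKM. With assembled transcripts Ddx58 ranged from 14.8 to 17.5 FPKM. On annotated transcripts the log2 differences between arrested and competent libraries were -0.26 ± 0.19 for Ifih1 and -0.04 ± 0.16 for Ddx58 (SE).

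The oligoadenylate synthetase family includes enzymes that activate RNase L on double-stranded RNA. All its members here had log2 differences below 0 between arrested and competent libraries, and none passed the test. In FPKM on annotated transcripts, only Oasl2 was lower in every arrested library than in any competent one. With assembled transcripts Oas1a and Oas2 were so too. Oasl2 had 84.0, 63.9 and 79.5 FPKM in arrested libraries and 134, 95.9 and 137 FPKM in competent libraries, against 81.1, 68.3 and 155 FPKM in control libraries. Arrested libraries were all below competent ones, but control 3 was the highest of all 9. The log2 difference of Oasl2 between arrested and competent libraries was -0.67 ± 0.30 (SE; limma adjusted p = 0.47), and it was also -0.67 with assembled transcripts. Oasl1, which restrains the translation of Irf7 in the mouse, had 29.7, 6.23 and 4.81 FPKM in arrested libraries and 32.5, 26.2 and 27.2 FPKM in competent libraries, against 21.7, 23.4 and 18.8 FPKM in control libraries. Arrested 2 and 3 were below all other libraries, while arrested 1 was among the highest. For Oasl1 the log2 difference from competent libraries was -1.44 ± 0.55 (SE; limma adjusted p = 0.41), with assembled transcripts it was -1.17 ± 0.45 (limma adjusted p = 0.35), and on annotated transcripts without arrested 1 it was -2.19 with an adjusted p of 0.0079 (limma). The same omission gave an adjusted p of 0.023 for Oasl1 between arrested and control libraries (limma). A call that depends on leaving out 1 of 3 libraries describes the remaining 2.

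Oas1a and Oas2 lie in a cluster on chromosome 5 with Oas3, and depended on how transcripts were counted. Oas1a had 18.5, 15.9 and 32.1 FPKM in arrested libraries and 39.1, 20.4 and 22.0 FPKM in competent libraries, against 26.4, 27.2 and 36.2 FPKM in control libraries. These annotated values overlapped. With assembled transcripts Oas1a had 27.3, 15.9 and 32.1 FPKM in arrested libraries and 39.1, 42.7 and 44.2 FPKM in competent libraries, so the groups separated and the log2 difference was -0.77 ± 0.25 (SE; limma adjusted p = 0.30). Of its 50-base stretches, 53% are shared with Oas1g and Oas1b, so reads could be split among these copies. Oas2 with assembled transcripts had 10.3, 9.29 and 22.9 FPKM in arrested libraries and 28.1, 25.2 and 31.6 FPKM in competent libraries, against 33.9, 16 and 17 FPKM in control libraries. The arrested libraries of Oas2 were below the competent ones (log2 difference -1.06 ± 0.38, limma adjusted p = 0.33) and overlapped the control libraries. Oas3 stayed between 0.532 and 4.10 FPKM, with arrested 1 and 2 the lowest libraries and arrested 3 the highest.

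Mx1 and Eif2ak2 separated in the same direction once assembled transcripts were added. Mx1 had 2.62, 2.11 and 4.83 FPKM in arrested libraries and 7.08, 7.36 and 9.12 FPKM in competent libraries, against 4.38, 3.02 and 14.9 FPKM in control libraries, with a log2 difference between arrested and competent libraries of -1.13 ± 0.48 (SE; limma adjusted p = 0.40). Control 3 was the highest library for Mx1. Eif2ak2 (PKR, the kinase that halts translation on double-stranded RNA) had 18.2, 16.1 and 17.5 FPKM in arrested libraries and 19.1, 20.5 and 22.0 FPKM in competent libraries, against 20.4, 19.8 and 19.2 FPKM in control libraries. Every arrested library was below every other library for Eif2ak2, by a small margin. On these values its log2 difference from competent libraries was -0.24 ± 0.11 (SE; limma adjusted p = 0.42), and on annotated transcripts it was -0.44 ± 0.19 (limma adjusted p = 0.46).

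**Figure D4:**
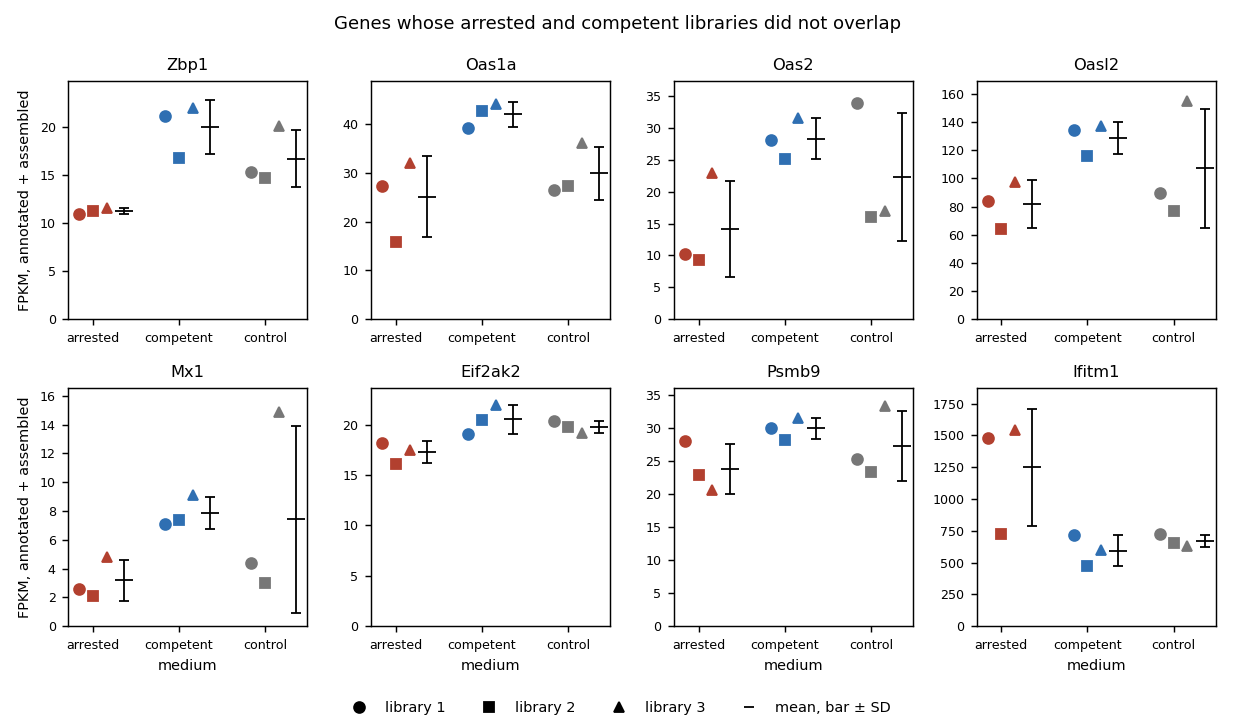
Points are FPKM on annotated and assembled transcripts of 8 genes in each library, with black bars for the mean ± SD of 3 libraries; the genes shown are those whose arrested and competent libraries do not overlap on these values. Arrested libraries lie below competent ones for 7 genes and above them for Ifitm1, where arrested 2 at 722 FPKM is barely above competent 1 at 717 FPKM.

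Ifitm1 and Ifitm3, neighbours on chromosome 7 that encode small membrane proteins hindering fusion of virus with the cell, were among the 10 of 34 genes above 0 between arrested and competent libraries. Ifitm1 (chr7:148153120-148155724 on NCBIM37, plus strand) had 1480, 722 and 1540 FPKM in arrested libraries and 717, 470 and 596 FPKM in competent libraries, against 725, 656 and 632 FPKM in control libraries. Arrested 1 and 3 stood far above every other library, and arrested 2 lay near the top of the range of the rest. The mean was 1250 ± 454 FPKM in arrested libraries, 594 ± 123 FPKM in competent libraries and 671 ± 48.2 FPKM in control libraries (SD, n = 3 each). The log2 difference was 1.01 ± 0.29 from competent libraries (SE; limma adjusted p = 0.34) and 0.81 ± 0.29 from control libraries (limma adjusted p = 0.90). Without arrested 2, the difference from competent libraries was 1.36 with an adjusted p of 0.049 (limma). That library is also the one with the high adipocyte sum, and the part of this in the result was not tested.

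Ifitm3 had 2240, 1280 and 2060 FPKM in arrested libraries and 1520, 1270 and 1220 FPKM in competent libraries, against 1410, 1300 and 1030 FPKM in control libraries. Arrested 1 and 3 were again the highest, and arrested 2 lay among the others. Its log2 difference was 0.44 ± 0.23 from competent libraries (SE; limma adjusted p = 0.53) and 0.55 ± 0.23 from control libraries (limma adjusted p = 0.90). Ifitm1 shares 5.02% and Ifitm3 10.0% of 50-base stretches with other genes, Ifitm2 and Gm7676 among them. Across the 9 libraries the mean correlation of log2 levels with the other members was -0.13 for Ifitm1 and -0.21 for Ifitm3, the only negative values of the 34, against 0.58 for Isg15 and Usp18. These correlations describe 9 libraries that share the groups and the differences between libraries described above. Ifitm3 holds 2 ISRE cores in the window shown above, and no core was found in the window of Ifitm1.

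**Figure D5:**
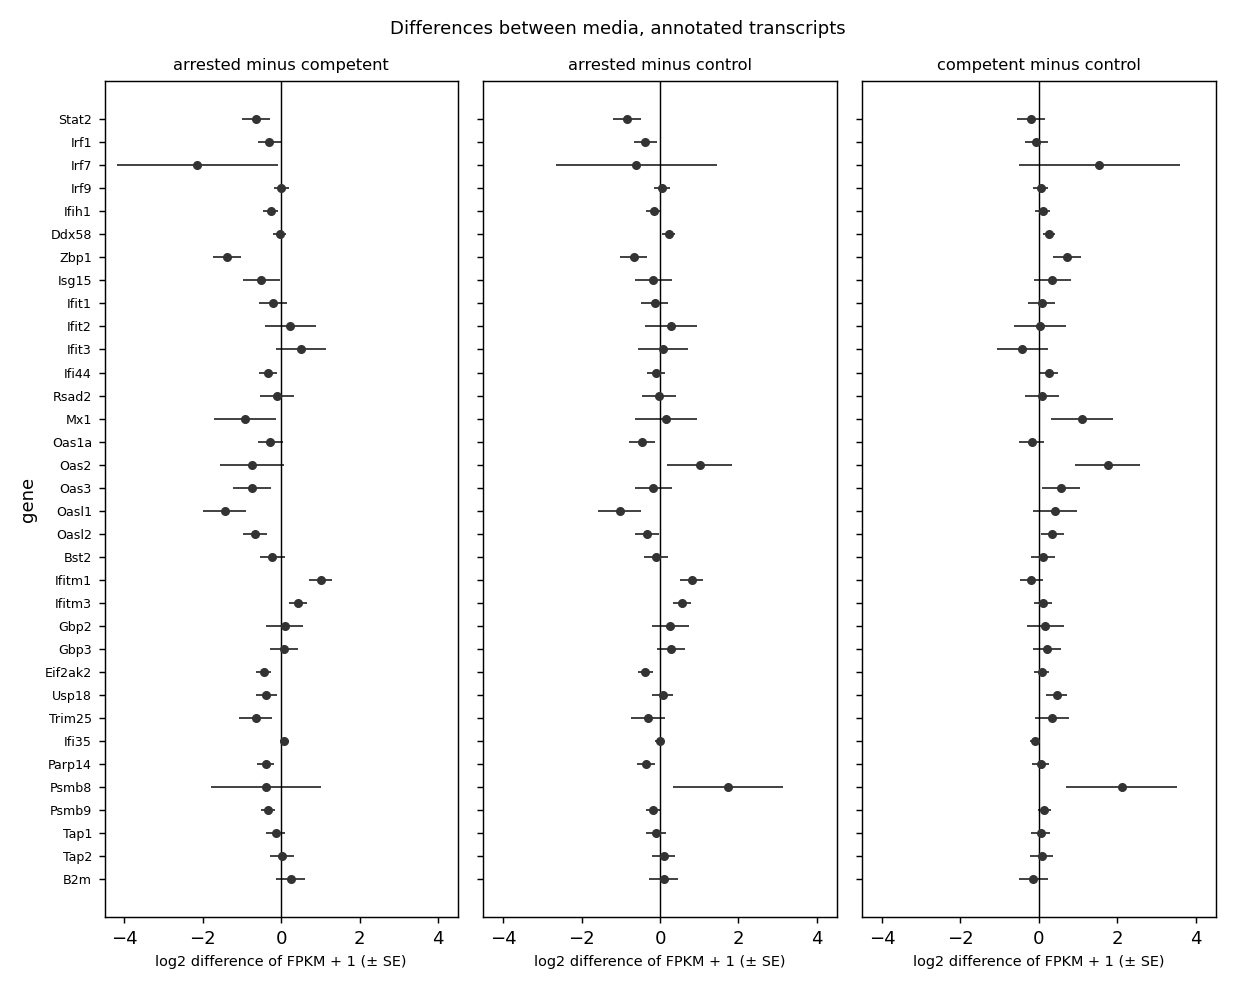
Points are differences in log2(FPKM + 1) on annotated transcripts for the 34 tested genes in the 3 comparisons, with SE bars from the limma fit, and the vertical line is at 0. Most points lie left of 0 for arrested minus competent, with Ifitm1 at 1.01 on the right, and Irf7 and Psmb8 have wide bars because some libraries are listed at 0.

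Set against control libraries, arrested libraries showed no shared direction on annotated transcripts. Of 34 differences, 20 were below 0 (53.1% of all genes) and 14 above (46.9%), with a median of -0.10 against -0.02 for all genes. The sign of that median depended on single libraries: it was 0.02 without arrested 1, 0.05 without arrested 2 and 0.07 without control 3. The groups did not overlap for 1 gene (8.85%), Stat2, which was lower (5.36%), and 0 genes were higher without overlap (3.49%). With assembled transcripts, 28 of 35 differences were below 0 (54.2%) and 7 above (45.8%), Zbp1 and Eif2ak2 were lower without overlap (5.94%) and 0 genes were higher (3.32%). On annotated transcripts Ifitm1, Ifitm3 and Stat2 were the genes with an unadjusted p under 0.05, and all adjusted p were 0.90 or more (limma). With assembled transcripts they were Zbp1, Ifitm1 and Ifitm3, and the smallest adjusted p was 0.79 (limma).

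Stat2, a subunit of the type I interferon complex, had 2.54, 4.93 and 5.91 FPKM in arrested libraries and 5.46, 5.63 and 11.8 FPKM in competent libraries, against 9.28, 6.28 and 10.4 FPKM in control libraries. Each arrested library was below each control library, with competent libraries spanning both. The mean was 4.46 ± 1.73 FPKM in arrested libraries and 8.66 ± 2.14 FPKM in control libraries (SD, n = 3 each), a log2 difference of -0.85 ± 0.36 (SE; limma adjusted p = 0.90). Assembled transcripts took 53.8% of its FPKM, and with them Stat2 had 7.17, 11.3 and 26.8 FPKM in arrested libraries, 11.3, 11.4 and 16.1 FPKM in competent libraries and 12.2, 11.4 and 27.1 FPKM in control libraries. The separation was then gone, and arrested 3 and control 3 were the highest libraries, as for Ifit3. Taking only the transcript of highest mean FPKM in place of the sum turned the sign, to 2.22. That transcript was listed at 0 FPKM in every control library, where the annotated FPKM of Stat2 lay on its other transcripts.

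The IRF factors, which bind the ISRE and related sites, did not separate in FPKM. Irf7, the factor that amplifies type I interferon production, had 31.0, 0 and 42.4 FPKM in arrested libraries and 57.0, 39.2 and 50.4 FPKM in competent libraries, against 0, 17.2 and 264 FPKM in control libraries. Control 3 was by far the highest in FPKM, and the values of 0 in arrested 2 and control 1 were not filled by assembled transcripts. In control 3, 172 FPKM lay on an annotated transcript of Irf7 and 52.2 FPKM on another. Both transcripts were listed at 0 in all other libraries. With fragments scaled to the library's total but not to transcript length, Irf7 was at 173 in control 3. Competent libraries then had 104, 71.3 and 91.8, so control 3 stayed the highest by a smaller margin. The size of its lead thus depended on how fragments were assigned to transcripts. Irf1, which answers to interferon gamma, had 45.8, 57.1 and 36.6 FPKM in arrested libraries, 69.8, 54.0 and 47.6 FPKM in competent libraries and 48.6, 46.9 and 91.3 FPKM in control libraries. Control 3 was again the highest, and arrested 3 was the lowest, unlike Isg15. Irf9, the DNA-binding part of the type I complex, had 35.8, 28.7 and 35.4 FPKM in arrested libraries, 42.3, 25.5 and 32.8 FPKM in competent libraries and 35.6, 31.9 and 28.6 FPKM in control libraries. Its log2 difference between arrested and competent libraries was 0.01 ± 0.20 (SE). With assembled transcripts Irf9 had 42.3, 35.4 and 43.1 FPKM in competent libraries and 35.6, 31.9 and 47 FPKM in control libraries, the arrested values being as before. The log2 difference between arrested and competent libraries was then -0.27 ± 0.17 (SE; limma adjusted p = 0.59), and the groups still overlapped.

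Set against control libraries, competent libraries had slightly higher levels of most of the genes. The difference was above 0 for 27 of 34 (48.1% of all genes) and below 0 for 7 (51.9%), with a median of 0.11 against -0.01 for all genes, and the smallest adjusted p was 0.95 (limma). The median was 0.33 without control 3, where 28 were above 0, and 0.04 without control 2, where 20 were above 0. Groups did not overlap for 3 genes (14.9%), Zbp1, Oas2 and Oasl1, all higher in competent libraries (6.72%), and 0 genes were lower without overlap (8.13%). Zbp1 differed by 0.71 ± 0.35 (SE; limma adjusted p = 0.95) and Oasl1 by 0.41 ± 0.55 (limma adjusted p = 0.97) on the log2 scale. Oas2 on annotated transcripts had 5.40, 5.45 and 13.7 FPKM in arrested libraries and 9.87, 11.7 and 19.7 FPKM in competent libraries, against 6.45, 9.04 and 0 FPKM in control libraries. The 0 of control 3 became 17 FPKM with assembled transcripts, and the groups then overlapped. On the combined values 24 of 35 differences were above 0 (46.1%) and 11 below (53.9%), the genes higher without overlap were Ifi44 and Oas1a (6.97%), and 0 genes were lower (9.6%).

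Antigen processing genes of the class II region on chromosome 17, where Psmb9, Tap1, Psmb8 and Tap2 lie side by side, showed small differences between media. Psmb9, an immunoproteasome subunit, had 28.1, 22.9 and 20.6 FPKM in arrested libraries and 30.1, 28.3 and 31.6 FPKM in competent libraries, against 25.3, 23.4 and 33.4 FPKM in control libraries. Arrested libraries were all below competent ones, by as little as 28.1 against 28.3 FPKM, with a log2 difference of -0.33 ± 0.17 (SE; limma adjusted p = 0.55). Psmb8 followed the same order, and with assembled transcripts its log2 difference was -0.38 ± 0.15 (SE; limma adjusted p = 0.37) although arrested 1 at 64.4 FPKM lay within the competent range. Tap1, a chain of the peptide transporter, had 13.1, 13 and 17.8 FPKM in arrested libraries, 17.7, 13.1 and 17.8 FPKM in competent libraries and 13.5, 12.6 and 22.3 FPKM in control libraries. Tap2, its partner, had 10.9, 14.7 and 18.6 FPKM in arrested libraries, 9.93, 18 and 16 FPKM in competent libraries and 13.9, 10.0 and 17.7 FPKM in control libraries. Neither transporter gene separated the media. With assembled transcripts Tap1 reached 27.8 FPKM in competent 2, and Tap2 had 19.9 FPKM in competent 1 and 18.2 FPKM in control 2. Their log2 differences between arrested and competent libraries were then -0.48 ± 0.26 for Tap1 and -0.29 ± 0.20 for Tap2 (SE), against -0.14 ± 0.25 and 0.02 ± 0.30 on annotated transcripts. B2m had 1060, 841 and 1090 FPKM in arrested libraries, 872, 819 and 814 FPKM in competent libraries and 782, 558 and 1800 FPKM in control libraries, with control 3 above all others. The library preparation is of a kind that does not keep strand, and exons of Tap1 and Psmb9 overlap on opposite strands over 5.48% of Psmb9, so a part of their reads cannot be told apart.

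The remaining effectors and regulators gave no separation on annotated transcripts. Ifit2 ranged from 0 to 6.24 FPKM, Ifi44 from 6.07 to 11.9 FPKM, Gbp2 from 8.39 to 31.4 FPKM and Gbp3 from 8.61 to 20.7 FPKM, or from 16.9 to 46.3 FPKM with assembled transcripts. The last are GTPases that attack the membranes around intracellular pathogens. Trim25, a ubiquitin ligase that activates RIG-I, ranged from 9.47 to 37.8 FPKM and was lowest in arrested 1. Ifi35 stayed between 28.2 and 33.4 FPKM and Parp14 between 8.76 and 19 FPKM; the differences of Ifi35 had the smallest SE of the 34, 0.12 on the log2 scale.

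Genes before and beside these in the pathway were examined as a list. Of 18 interferon ligand genes with a value, 12 were listed at 0 in all 9 libraries, and only Ifne, the interferon epsilon of the uterine epithelium, reached the floor for testing. Ifne had 13.4, 10.4 and 24.3 FPKM in arrested libraries and 13.4, 10.7 and 12.3 FPKM in competent libraries, against 12, 17.3 and 12.3 FPKM in control libraries. It was highest in arrested 3 and overlapped among the media, while Ifng, made by T cells and natural killer cells, was at most 0.367 FPKM. Of 8 tested receptor and JAK genes, 0 passed the limma test in any comparison, against 0.135%, 0.0525% and 0.045% of all genes. Between arrested and competent libraries 1, Ifnar2, had an unadjusted p under 0.05 (10.9% of all genes), and 4 differences lay on each side of 0. Ifnar2, a chain of the type I receptor, had 24.6, 28.2 and 33.9 FPKM in arrested libraries and 10.2, 11.1 and 21.4 FPKM in competent libraries, against 22.0, 21.2 and 64.0 FPKM in control libraries. Arrested libraries were above competent ones for Ifnar2, opposite to most induced genes, with a log2 difference of 1.04 ± 0.44 (SE; limma adjusted p = 0.45). Between competent and control libraries its log2 difference was -1.15 ± 0.44 (SE; limma adjusted p = 0.93), and those groups overlapped.

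A second list held interferon-induced genes outside the 35. Of 30 tested, 21 differences were below 0 (50.9% of all genes) and 9 above between arrested and competent libraries, with a median of -0.22. Between arrested and control libraries 23 were below 0 (53.1%), with a median of -0.13. Between competent and control libraries 16 were above 0 (48.1%) and 14 below, with a median of 0.02. The higher levels of most of the 35 genes in competent libraries were thus not repeated in this list. In each comparison 0 passed the limma test and 1 had an unadjusted p under 0.05, against 10.9%, 5.27% and 5.18% of all genes. Dtx3l, the partner of a PARP enzyme, had 6.68, 10.1 and 10.8 FPKM in arrested libraries, 15.6, 10.6 and 16.2 FPKM in competent libraries and 12.3, 12 and 17.2 FPKM in control libraries, and arrested and competent libraries overlapped by a narrow margin. Cxcl10, the chemokine that draws T cells, had 24.8, 5.67 and 8.40 FPKM in arrested libraries and 4.18, 6.84 and 18 FPKM in competent libraries, against 27.7, 23.2 and 55.1 FPKM in control libraries. Competent libraries were all below control ones for Cxcl10 (log2 difference -1.89 ± 0.63, limma adjusted p = 0.88). Among 13 tested partners in class I processing, 8 differences were below 0 between arrested and competent libraries (50.9% of all genes) and 5 above. Calr had the smallest p of these, with 217, 198 and 256 FPKM in arrested libraries against 282, 351 and 354 FPKM in competent libraries. Its log2 difference was -0.55 ± 0.17 (SE; limma adjusted p = 0.36). Psmb10, the remaining immunoproteasome subunit, had 61.3, 43.9 and 41.4 FPKM in arrested libraries against 64.3, 64.3 and 63.4 FPKM in competent libraries (log2 difference -0.40 ± 0.16, limma adjusted p = 0.41). The 14 subunits of the constitutive proteasome were split 6 above and 8 below 0 in that comparison, with a median of -0.04.

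Markers of cell types differed in direction between arrested and competent libraries. Neutrophil genes were below 0 for 2 of 2 tested, macrophage genes were split 3 and 3, and T cell genes 1 and 1. Blood genes were above 0 for 5 of 5, with a median of 0.77 and sums of 3620, 4840 and 2090 FPKM in arrested libraries against 3970, 2480 and 747 FPKM in competent libraries. All 5 natural killer cell genes were above 0 in that comparison, with a summed level of 42.8, 40.5 and 19.7 FPKM in arrested libraries, 12.8, 18.5 and 16.5 FPKM in competent libraries and 30.0, 18.4 and 34.4 FPKM in control libraries. Class II genes, which professional antigen-presenting cells express, were above 0 for 7 of 7 between arrested and competent libraries and below 0 for 7 of 7 between competent and control libraries. H2-Aa, a class II chain, had 139, 135 and 89.0 FPKM in arrested libraries and 69.8, 78.2 and 60.5 FPKM in competent libraries, against 157, 91.8 and 138 FPKM in control libraries. All competent libraries were below all others for H2-Aa, with a log2 difference between competent and control libraries of -0.85 ± 0.25 (SE; limma adjusted p = 0.87). Smooth muscle markers were below 0 for 6 of 6 between arrested and competent libraries, with sums of 868, 2110 and 1170 FPKM in arrested libraries against 1360, 2740 and 2060 FPKM in competent libraries. Epithelial markers were split 2 above and 4 below 0, stromal markers 4 and 2, and endothelial and pan-leukocyte markers 4 and 1 each. Cdh1 of epithelium and Dcn of stroma had the smallest p of their lists. Cdh1 had 123, 104 and 112 FPKM in arrested libraries against 176, 152 and 165 FPKM in competent libraries. Its log2 difference was -0.54 ± 0.11 (limma adjusted p = 0.23), and that of Dcn was 0.71 ± 0.19 (limma adjusted p = 0.29). The part of these cell contents in the levels of the 35 genes was not tested.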

How the data were processed

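RNA of 9 mouse uterus libraries, 3 a group, was sequenced by the submitters on an Illumina HiSeq instrument from 1 µg of RNA with a TruSeq RNA kit, per the labels. The submitters' processing notes name Bowtie 0.12.2, Cufflinks (with no version) and the genome build mm9. The deposited transcript files hold FPKM values by the authors and a coverage signal per transcript; read numbers are not given there, so depth is unknown and no counting interval is stated. The coverage signal deposited by the authors was used only to sum covered bases per library.

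A gene's FPKM was summed here over its annotated transcripts, matched by transcript ID to GENCODE vM1 on NCBIM37. A second version added FPKM of assembled transcripts that shared a splice junction (an exon end and the next exon start) with that gene only. Other assembled transcripts were left out, and in control 1, for example, 6105 of 11258 were joined. A value of 0 that remained may reflect this rule. The 13333 of 35934 genes averaging 1 FPKM or more were tested as log2(FPKM + 1) with limma 3.58.1 in R 4.3.3, in a trend fit over all 9 libraries with 8.07 total degrees of freedom, and Benjamini-Hochberg adjustment over all genes. A pseudocount of 1 understates differences of low genes. The fit was tested in 3 simulations of arrested against competent libraries, with 200 changed genes. These were drawn from genes with a mean log2(FPKM + 1) above 3. The fit recovered 38.7% of changes of 1 on the log2 scale and 77% of changes of 2. Some of the 34 tested genes lie below that mean. The median within-group SD over the 34 was 0.45, against 0.35 over all genes tested. Recovery for these 34 genes was not measured. A mean of 10 unchanged genes were called. A gene that was not called may therefore still differ between media.

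The members and gene lists were chosen with earlier results of these data known. Values in every library were given for members whose groups did not overlap and for a fixed list of 16 regulators, effectors and antigen processing genes; Ifit3, Ifitm3, Oas1a, Mx1, Mx2, Eif2ak2 and, among other genes, Ifne, Pgr, Esr1, Hoxa10 and Msx1 were chosen after their values were seen. Promoters came from RefSeq (GRCm38.p6), a different build from that of the files, and were used for sequence only. Settings varied were the pseudocount, the floor, scaling, the choice of transcripts, the libraries in the fit, the prior, a block for the replicate number and each library left out.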

Additional observations from a re-analysis of the deposited data

How the results depend on the processing

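Of the 34 tested genes, 0 were called in the fit as reported, and leaving out 1 library gave 0 to 1 between arrested and competent libraries, 0 to 1 between arrested and control libraries and 0 to 0 between competent and control libraries; the calls were Oasl1 without arrested 1 and Ifitm1 without arrested 2. With only the transcript of highest mean FPKM, 1 gene, Stat2, was called between competent and control libraries (limma adjusted p = 0.049). The Stat2 difference between arrested and control libraries became 2.22. That transcript was listed at 0 FPKM in every control library, where the annotated FPKM of Stat2 lay on its other transcripts. Both values therefore describe 1 transcript and not the summed level of Stat2. Why the FPKM fell on different transcripts was not tested. Over all genes, 18 were called between arrested and competent libraries, 7 between arrested and control libraries and 6 between competent and control libraries. In that order, leaving out 1 library gave 12 to 43, 7 to 25 and 4 to 17 genes. The single transcript gave 11 and 3 in the first 2 comparisons, fits of only the 2 groups gave 33 and 12 in the first and last, and the fit with no mean trend gave 10 in the first. In the last, a pseudocount of 5 gave 2 and no floor on low values gave 10. Over all genes, same-numbered libraries did not deviate together (correlations of -0.052 to 0.096), and the labels give the number no meaning, although among the 34 genes library 2 was most often the lowest and library 3 most often the highest of each group; the replicate block gave 4, 5 and 1 genes and called 0 of the members. The median differences over the 34 genes stayed from -0.37 to -0.15 between arrested and competent libraries, from -0.27 to 0.07 between arrested and control libraries and from 0.04 to 0.33 between competent and control libraries under all 21 alternatives. Depth in reads is unknown, and near-identical copies limit Ifit3 and Oas1a.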
